A study of Mus musculus with 7 samples.

Results

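Dividing neuroblasts of the ventricular-subventricular zone (V-SVZ) were taken from single-cell RNA-seq libraries as cells that carried both proliferation and neuroblast transcripts. A cell was a member when it held at least 3 unique molecular identifiers (UMIs, each standing for 1 captured transcript) of Top2a and Mki67 together, at least 3 of Dcx, at least 1 of Dlx2, and none of Pdgfra or Mog. Top2a (a topoisomerase) and Mki67 (the Ki67 antigen) are made by cycling cells, Dcx (doublecortin) and Dlx2 (a homeobox factor) by neuroblasts, Pdgfra by oligodendrocyte precursors and Mog by oligodendrocytes. Of 43346 cells that passed quality filters, 1372 were members. Because the members were chosen by the counts of these 6 genes, their levels are descriptions and were not tested.

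Prdm16 was deleted in radial glia, and V-SVZ cells of juvenile mice were profiled to ask if stem cells without it kept an embryonic radial glial expression program. The tissue came from the lateral walls of the lateral ventricles of mice aged 31 to 33 days, and each library pooled 2 to 3 animals of both sexes. The 3 control libraries carried floxed Prdm16 alleles on both chromosomes (Prdmflox/flox in the labels) without Cre, the 3 cKO libraries were hGFAP-Cre+/-; Prdm16flox/flox, and the 1 DKO library was hGFAP-Cre+/-; Prdm16flox/flox; Vcam1flox/flox. Floxed Prdm16 alleles were therefore shared by all 7 libraries, while Cre was present in 4. The Cre transgene is driven by the human GFAP promoter, which is active in embryonic radial glia, so their neuronal and glial descendants inherit the deletion.

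Neural stem cells of the V-SVZ give rise to transit amplifying precursors, which express Egfr and divide rapidly. Their progeny, the neuroblasts, switch on Dlx genes, doublecortin and the GABA-synthesizing enzymes, and migrate in chains toward the olfactory bulb, where they become interneurons. Unlike most neuronal precursors, these neuroblasts can still divide while they migrate.

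The libraries were of unequal size. Each held 3753 to 13594 barcodes and 45758003 to 141353017 UMIs, and 1868 to 9502 cells per library were kept. Members numbered 278, 148 and 352 in control libraries 1 to 3, 278, 40 and 55 in cKO libraries 1 to 3, and 221 in the DKO library, so cKO library 1 supplied most of the cKO cells. The summed counts per library ran from 865238 UMIs in cKO library 2 to 6470042 in control library 3. Control library 1 and cKO library 1 stood apart by depth, with medians of 12924 and 11118.5 UMIs per member, against 17765 to 21107 in the other 5 libraries. No member shared a cell barcode with a member of another library, and 21 shared one with some kept cell of another library.

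Members were larger than other cells in transcript content, with a median of 15880 UMIs against 6886.5 over all kept cells, and the rule itself favours deep cells. The median member held 38.5 UMIs of Top2a and Mki67 together. At the border of the rule, 74 members had exactly 3 UMIs of Top2a and Mki67, 179 had exactly 3 of Dcx and 60 had exactly 1 of Dlx2. Just outside it lay 136 cells with 2 UMIs of Top2a and Mki67, 212 with 2 of Dcx and 68 with no Dlx2 that met every other condition. A further 684 cells failed only by Pdgfra or Mog, and 448 of these held a single Mog UMI and no Pdgfra. The doublet caller Scrublet marked 34 members.

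The label was checked against markers that the rule did not use. All 11 further neuroblast markers were detected, and their summed level was 6610 to 8132 CPM (the UMIs of a gene scaled to a common library total) across the 7 libraries. All 5 further division markers were detected too, summing to 3038 to 3959 CPM. Detection alone does not check the label, since all 4 microglia and all 4 endothelial markers were also detected. Their sums were 7.24 to 43.7 and 8.09 to 41.7 CPM. T cell markers were at or near 0, with 2 of 3 at 0 in every library. Markers of other types were not absent: oligodendrocyte markers summed to 216 to 619 CPM, neural stem cell and astrocyte markers to 111 to 300.1 CPM, and hemoglobin genes to 32.1 to 1047 CPM. Their part in the results was not tested.

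Dividing neuroblasts differed from postmitotic neuroblasts in genes that the rule did not use. For comparison, 3855 cells that met the same conditions on Dcx, Dlx2, Pdgfra and Mog but had no UMI of Top2a or Mki67 stood for postmitotic neuroblasts. Egfr, the receptor for epidermal growth factor, was at 40.4 to 73.4 CPM in dividing and 11.6 to 19.6 CPM in postmitotic neuroblasts. In the opposite direction, Stmn2, a regulator of neuronal microtubules, was at 469 to 884 CPM in dividing and 1831 to 2680 CPM in postmitotic neuroblasts. Sp8, a zinc-finger factor of olfactory interneurons, was at 62.3 to 90.1 CPM and 123 to 196 CPM in the same order. For Egfr, Stmn2 and Sp8 the ranges over 7 libraries did not overlap. Of 38 interneuron lineage factors, which include Sp8, 16 were lower and 7 higher in dividing than in postmitotic neuroblasts in all 7 libraries. Over all 12157 genes tested, 3487 were lower and 2530 higher in all 7 libraries. The median difference of the 38 factors was -0.17 on the log2 scale (CPM plus 1), against -0.12 over all genes.

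**Figure D1:**
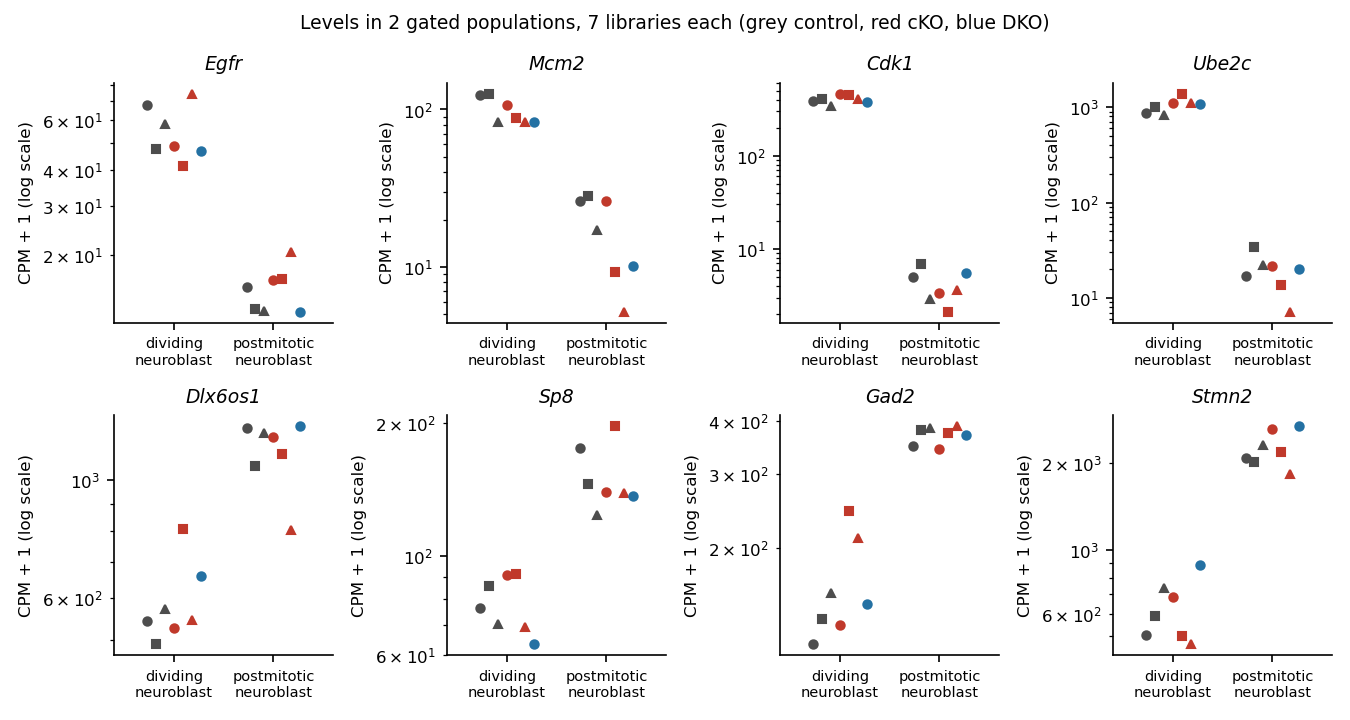
Level in CPM plus 1, on a log axis, of 8 genes in dividing and postmitotic neuroblasts; each point is 1 library (grey control, red cKO, blue DKO; circle, square and triangle are libraries 1, 2 and 3). Dividing neuroblasts lie above postmitotic neuroblasts for Egfr, Mcm2, Cdk1 and Ube2c, and below them for Sp8, Gad2 and Stmn2.

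Gad2 was compared at equal depth by the share of cells with a transcript. After thinning cells to 4000 UMIs, this enzyme, which makes GABA from glutamate, was found in 33.8% to 53.8% of members and in 65.7% to 76.1% of postmitotic neuroblasts. Microglia with Gad2 reached 16.9% in 1 library, so a level of that size cannot be told from free RNA. Thinning left out at most 4 members of any library, but 5 to 188 postmitotic neuroblasts, the most in control library 1 (163 of 729) and cKO library 1 (188 of 576). All microglia, including those too shallow to be thinned, had library medians of 3980 to 6734 UMIs, below those of the members.

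The genes of G2 and mitosis marked the dividing state. All 65 listed members were higher in dividing than in postmitotic neuroblasts in all 7 libraries, with a median difference of 5.35 on the log2 scale (CPM plus 1), against -0.12 over all genes. Of all 12157 genes tested, 2530 were higher in all 7 libraries. Because Top2a and Mki67 defined both populations, this comparison is a description. Cdk1, the kinase that drives entry into mitosis, was at 340 to 461 CPM in members and 1.11 to 5.94 CPM in postmitotic neuroblasts. Ube2c, a ubiquitin-conjugating enzyme of the anaphase-promoting complex, was at 836 to 1380 CPM in members and 6.12 to 32.8 CPM in postmitotic neuroblasts. The 50 S phase genes were also higher than in postmitotic neuroblasts in all libraries, with a median of 2.55.

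Since these genes move together, the promoters of Cdk1 and Ube2c are shown for the elements usually found in genes of this class, the cell cycle genes homology region (TTTGAA) and the CCAAT box. Capitals mark matches on either strand in the bases from 200 to 21 upstream of the RefSeq start site (GRCm38.p6). Cdk1 lies on the minus strand at chr10:69352933-69353112 and Ube2c on the plus strand at chr2:164769729-164769908.
Cdk1: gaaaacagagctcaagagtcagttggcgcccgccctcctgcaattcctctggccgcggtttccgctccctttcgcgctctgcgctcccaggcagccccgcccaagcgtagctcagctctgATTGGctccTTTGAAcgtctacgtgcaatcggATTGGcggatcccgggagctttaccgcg
Ube2c: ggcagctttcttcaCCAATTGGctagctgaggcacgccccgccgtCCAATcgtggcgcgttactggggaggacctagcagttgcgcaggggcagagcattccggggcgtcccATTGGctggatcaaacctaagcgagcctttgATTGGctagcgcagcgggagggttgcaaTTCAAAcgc

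In Ube2c, the run CCAATTGG holds overlapping matches to the CCAAT box on both strands. RefSeq promoter windows were matched for 53 of the 65 genes of G2 and mitosis (58 windows) and for 37 of the 50 S phase genes (45 windows). In the 250 bases before the start site, TTTGAA was present in 31% of the mitotic windows, 15.6% of the S phase windows and 16.0% of all 32851 windows. CCAAT was present in 67.2%, 64.4% and 33.8%, and both elements in 25.9%, 13.3% and 5.55%. The promoters shown for Cdk1 and Ube2c hold both, so they belong to a minority of the mitotic windows. A match is a string of letters and not a measured binding site.

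The share of dividing neuroblasts was similar among control libraries and spread widely among cKO libraries. Members made up 3.60%, 3.13% and 3.70% of kept cells in control libraries 1 to 3, and 4.47%, 2.14% and 0.857% in cKO libraries 1 to 3. The DKO library was at 3.21%. Thus cKO library 1 lay above every control and cKO libraries 2 and 3 below every control. With 6 in place of 3 UMIs in the rule (the stricter gate), cKO library 1, at 1.87%, lay among the controls at 1.75%, 2.18% and 2.39%. Without the condition on Pdgfra and Mog it also did, at 5.45% against 4.91%, 6.04% and 5.66%. The means were 3.48% ± 0.308 (SD, n = 3) and 2.49% ± 1.83 (SD, n = 3), and the difference was within the spread between libraries (p = 0.40 in an exact permutation test, two-sided, where 3 against 3 libraries cannot give less than 0.10). Without cKO library 1 the difference was -1.98 percentage points, and without cKO library 3 it was -0.17. By Wilson's 95% interval, which covers counting error only, the share was 3.99% to 5.02% in cKO library 1 and 0.659% to 1.11% in cKO library 3.

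As a share of the cells that met the conditions on Dcx, Dlx2, Pdgfra and Mog, whatever their Top2a and Mki67, members were 25%, 27.5% and 28.0% in controls and 30.1%, 15.0% and 10.4% in cKO libraries, with 18.8% in the DKO library (exact permutation test, p = 0.40). As a share of the cells with at least 3 UMIs of Top2a and Mki67 and none of Pdgfra or Mog, they were 38.5%, 54.4% and 53.2% in controls, 45.4%, 38.8% and 26.4% in cKO libraries, and 44.6% in the DKO library (p = 0.30, exact permutation test). After Benjamini-Hochberg adjustment over the 3 shares every p was 0.40. The file headers name Cell Ranger 6.0.1 for control and cKO libraries 1 and 2, and 6.1.1 for the other 3. Within the first version the mean share of kept cells was 3.36% in control and 3.31% in cKO libraries, and within the second it was 3.70% in 1 control and 0.857% in 1 cKO library. When cells under 4000 UMIs were left out (550 to 3198 per library) and the others thinned to 4000 before the rule was applied, which changed both depth and denominator, the share was 2.12%, 1.90% and 1.45% in controls, 1.96%, 0.835% and 0.425% in cKO libraries and 0.969% in the DKO library.

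**Figure D2:**
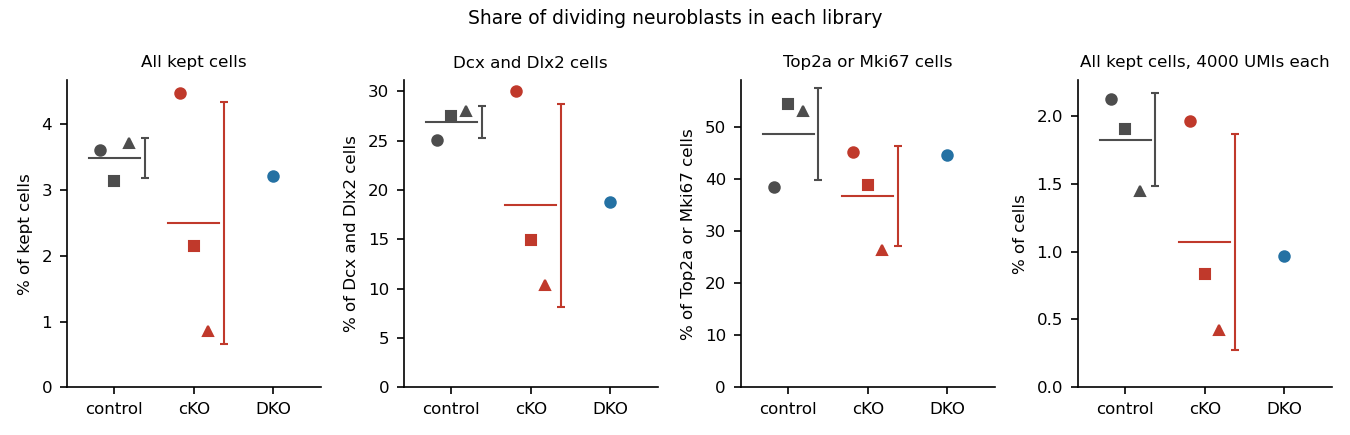
Dividing neuroblasts in percent of all kept cells, of cells that met the Dcx and Dlx2 conditions, of cells that met the Top2a and Mki67 condition (both without Pdgfra and Mog), and of the kept cells deep enough to be thinned to 4000 UMIs; each point is 1 library (circle, square and triangle are libraries 1, 2 and 3), lines are means and bars are SD over 3 libraries, with no bar for the single DKO library. In the first panel cKO library 1 lies at 4.47% and cKO library 3 at 0.857%, on either side of the controls at 3.13% to 3.70%.

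The targeted gene was read first in each library. Prdm16 (chromosome 4, 154316125 to 154636873, minus strand, GRCm38) encodes a histone methyltransferase and transcription regulator. It was at 6.97, 5.07 and 9.51 CPM in controls, at 3.87, 3.47 and 3.1 CPM in cKO libraries and at 4.88 CPM in the DKO library. Every cKO library was below every control. The log2 fold change was -1.0 ± 0.42 (SE) and was not called (edgeR quasi-likelihood test, unadjusted p = 0.029, adjusted p = 0.985). The values rest on 106 UMIs in controls and 19 in cKO libraries. Libraries were read from the 3' end of transcripts, and which exons Cre removes was not given in the sources used here, so the level does not check the deletion. Vcam1, the adhesion molecule also floxed in the DKO, was at 2.98 to 5.39 CPM in controls, 5.65, 0 and 13.4 CPM in cKO libraries and 3.26 CPM in the DKO library, and the ranges overlapped.

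Prm1 separated the libraries with Cre from those without. The gene (chromosome 16, 10796326 to 10805839, minus strand) encodes protamine 1, which packs DNA in sperm. No UMI was found in 778 control members, which allows a share of up to 0.386% of cells with a UMI; this limit pools the cells of 3 libraries and covers counting error only. In cKO libraries 1 to 3 it was found in 28.1%, 55.0% and 69.1% of members, and in the DKO library in 29.9%. Its level was 36.6, 65.9 and 131 CPM in cKO libraries and 38.6 CPM in the DKO library. Set against 3 UMIs over the control group, every cKO library was at least 164.5-fold higher. The edgeR test gave an unadjusted p of 0.015 and an adjusted p of 0.985, whereas DESeq2 called the gene higher. Prm1 was also found outside dividing neuroblasts. Over all kept cells, 14.5%, 24.8% and 27.9% in cKO libraries 1 to 3 and 17.2% in the DKO library held a Prm1 UMI. The share was 0.0259% to 0.0845% in controls. In postmitotic neuroblasts of the cKO libraries Prm1 was at 27.6 to 80.5 CPM, while 2.36% to 10.3% of microglia in cKO libraries held a Prm1 UMI before thinning. Whether these UMIs come from the Prm1 gene itself was not tested.

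Across all genes, no difference between cKO and control was called in dividing neuroblasts. Of 12157 genes tested on the summed counts, 0 were called in either direction (0.0%; edgeR, adjusted p under 0.05), 458 had an unadjusted p under 0.05 (3.77%), and DESeq2 called 3 higher and 0 lower. These 3 were Prm1, Tfap2a (a transcription factor) and Ptx3 (a secreted pentraxin), the latter named after their values were seen. The 3 control libraries did not overlap with the 3 cKO libraries in 1345 genes (11.1%). Without cKO library 1 there were 6 genes higher and 3 lower. The 6 were Prm1, Tfap2a, Ptx3, Calb2, Prkca and Gm29521, and the 3 were Mn1, Mfge8 and Ntrk2.

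Among genes whose mean log2 CPM reached 4, the 6 with the smallest unadjusted p were named by rule and none was called (adjusted p = 0.985 for each, edgeR). With the replicate number as a block, Anks1b and Tmem160 were called higher and Dll3 and Txnip lower. Anks1b, a scaffold protein of synapses, was at 70.4, 75.4 and 73.0 CPM in controls and at 91.3, 134 and 132 CPM in cKO libraries, with 62.1 CPM in the DKO library. Its log2 fold change was 0.72 ± 0.17 (SE). Dll3, a Notch ligand, was at 30.7, 30.7 and 20.8 CPM in controls, at 14.9, 12.7 and 13.4 CPM in cKO libraries and at 15.1 CPM in the DKO library, a log2 fold change of -0.93 ± 0.24. Every cKO value lay below every control.

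Txnip, the thioredoxin-interacting protein, was at 128, 113 and 97.8 CPM in controls, 83.6, 65.9 and 60.0 CPM in cKO libraries and 112 CPM in the DKO library. Cldn11, a claudin of myelin, was at 33.2, 41.7 and 40.1 CPM in controls and 19.0, 25.4 and 23.8 CPM in cKO libraries. The other two, Angptl6 (an angiopoietin-like protein) and Tmem160 (a membrane protein), had log2 fold changes of 0.88 ± 0.23 and 0.82 ± 0.21. In these 6 genes the groups did not overlap, as in 11.1% of all genes.

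**Figure D3:**
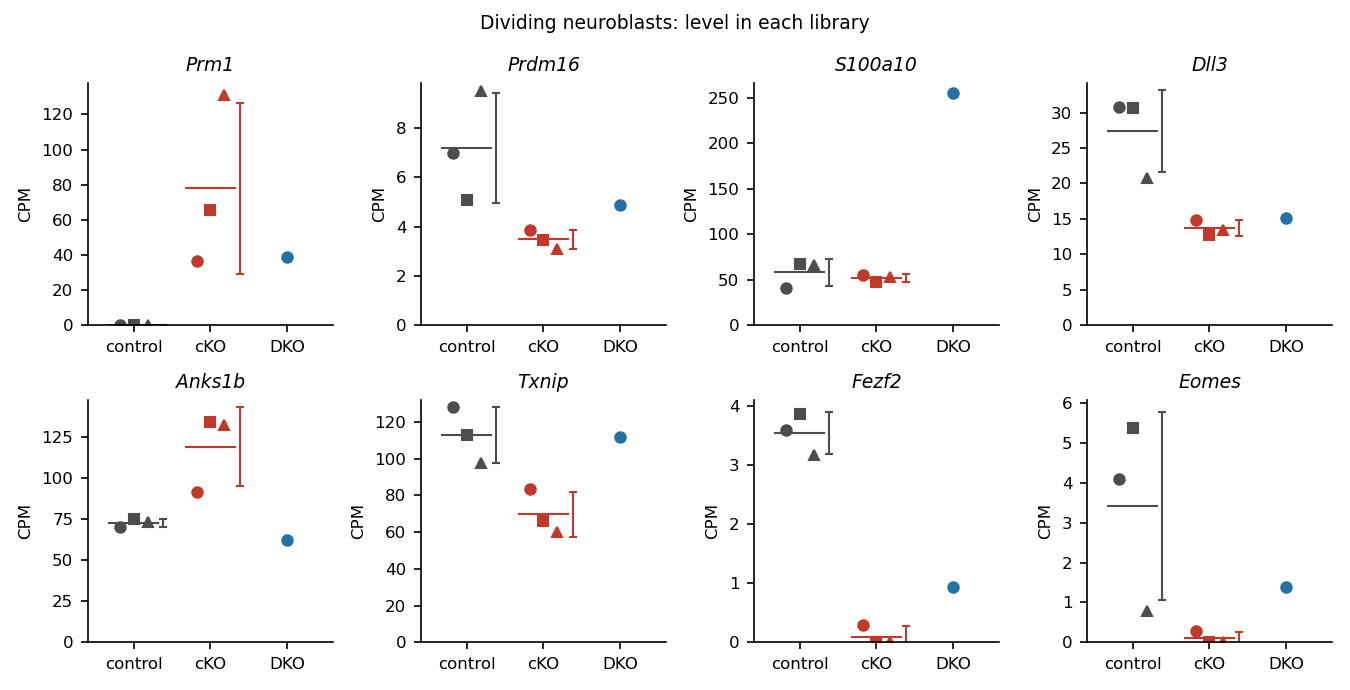
Level in CPM of 8 genes in dividing neuroblasts of each library; circle, square and triangle are libraries 1, 2 and 3, lines are means and bars are SD over 3 libraries, with no bar for the single DKO library. Prm1 is at 0 in the controls and at 36.6 to 131 in the cKO libraries, and S100a10 stands out in the DKO library alone.

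No gene of the cell cycle lists was called between genotypes with all libraries and no block (edgeR). With the replicate number as a block, Cdk6 of the G1 list was called lower in cKO libraries (log2 fold change -0.59, adjusted p = 0.042, edgeR). With the Cell Ranger version as a block, the linker histone genes Hist1h1a and Hist1h1b, which are outside the lists and were named after their values were seen, were called higher in cKO libraries. Of 65 genes of G2 and mitosis, 0 were called, 40 had a higher and 25 a lower estimate in cKO than in control libraries, and the median log2 fold change was 0.05, against -0.01 over all genes tested. Hmgb2, a chromatin protein of cycling cells, was at 3961, 4882 and 5681 CPM in controls and 5275, 5800.0 and 6392 CPM in cKO libraries. Ube2c was at 859, 1006 and 836 CPM in controls and 1099, 1380 and 1106 CPM in cKO libraries, which did not overlap (log2 fold change 0.44 ± 0.17, unadjusted p = 0.021, edgeR). Cks2, a partner of cyclin-dependent kinases, had 0.49 ± 0.20 with overlapping groups.

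The 50 S phase genes divided into 26 with higher and 24 with lower estimates, with a median of 0.02 and 0 called. Nasp, a histone chaperone, was at 617 to 857 CPM in controls and 653 to 775 CPM in cKO libraries. Dtl, which targets replication factors for destruction, was at 152, 117 and 130 CPM in controls and 112, 79.7 and 109 CPM in cKO libraries. Among 30 regulators of G1, 15 estimates were higher and 15 lower, with a median of -0.04. Ccnd2, the most abundant of them and a D-type cyclin, was at 3886 to 4891 CPM in controls and 3648 to 5348 CPM in cKO libraries. Its partner Cdk6 was at 169, 149 and 128 CPM in controls and 121, 68.2 and 101 CPM in cKO libraries, without overlap (log2 fold change -0.56 ± 0.18). Cdkn1c, a CDK inhibitor, had 0.64 ± 0.21 and the groups touched, since cKO library 1 and control library 1 were both at 47.3 CPM. No gene of these lists passed the test without a block. Over the alternatives the medians changed sign, from -0.03 to 0.08 for G2 and mitosis, from -0.03 to 0.13 for S phase and from -0.07 to 0.04 for G1.

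Transcription factors of the interneuron lineage were measured in 38 of 41 cases, with 13 estimates higher, 25 lower, a median of -0.07 and 0 called. The median was -0.14 after thinning to 4000 UMIs, -0.12 without the low-count filter and -0.11 with the stricter gate. Non-overlapping groups were seen in 10 of the 38, or 26.3%, against 11.1% of all genes. The most abundant, Sox11 and Tcf4, which act in neuronal differentiation, were at 2518 to 3301 and 2340 to 2624 CPM over control and cKO libraries. Prox1, a homeobox factor of granule neurons and interneurons, was at 156, 138 and 152 CPM in controls and 195, 247 and 187 CPM in cKO libraries (log2 fold change 0.52 ± 0.15). Sall3, a zinc-finger factor of olfactory bulb interneurons, was at 92.2, 88.5 and 79.9 CPM in controls and 69.9, 58.9 and 52.7 CPM in cKO libraries (-0.47 ± 0.16). None was called (adjusted p = 0.985, edgeR).

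Genes of the cortical excitatory lineage were scarce. Only 5 of 20 reached the count needed for a test, 1 with a higher and 4 with a lower estimate and 0 called. Fezf2, a factor of deep-layer cortical neurons, had 15, 13 and 20 UMIs in the controls, 1, 0 and 0 in the cKO libraries and 4 in the DKO library. Eomes, a factor of intermediate progenitors of excitatory neurons, had 17, 18 and 5 UMIs in controls, 1, 0 and 0 in cKO libraries and 6 in the DKO library. Per UMI sequenced, the cKO level was 5.42% of the control level for Fezf2 (95% exact interval 0.135% to 31.7%) and 6.51% for Eomes (0.161% to 38.4%); the intervals cover counting error only. Neither was called (adjusted p = 0.985, edgeR). Both were named by their small p in this list and passed the low-count filter only through control libraries. That choice favours a low cKO level, so the ratios are descriptions. Cux2 and Unc5d also had lower estimates. Per UMI sequenced, their cKO levels were 65.1% (95% exact interval 42.7% to 96.5%) and 39.4% (12% to 101.7%) of the control levels, on 128 and 33 UMIs in controls and 32 and 5 in cKO libraries. Neurod4 was at 2.98, 6.93 and 42.4 CPM in cKO libraries, so its higher estimate rested mainly on cKO library 3. The list median of -1.29 is the value of Unc5d and changed sign under other ways of choosing the cells.

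Of 50 genes of migration and the cytoskeleton, 32 were lower and 3 higher in dividing than in postmitotic neuroblasts in all 7 libraries. Of all 12157 genes tested, 3487 were lower and 2530 higher in this way. The median difference of the list was -0.75 on the log2 scale against -0.12 over all genes. Between genotypes, 29 of 50 estimates were higher and 21 lower, with a median of 0.07 and 0 called. The median was 0.16 without cKO library 1 and -0.0049 without cKO library 2, and was also below 0 after thinning (-0.04), with the stricter gate (-0.03) and with equal numbers of cells (-0.01). Erbb4, a neuregulin receptor of migrating interneurons, was at 22.3, 23.5 and 29.9 CPM in controls and 30.0, 47.4 and 35.2 CPM in cKO libraries, and cKO library 1 exceeded control library 3 only slightly. Map1b, a microtubule-associated protein, had a log2 fold change of -0.38 ± 0.17 with overlapping groups. The 17 genes of GABA synthesis, transport and reception split into 9 higher and 8 lower (median 0.04, from -0.15 to 0.14 over the alternatives). Gad2 was at 117, 135 and 156 CPM in controls and 130, 244 and 210 CPM in cKO libraries, with overlap (0.53 ± 0.21).

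Of 21 Notch pathway genes tested, 5 had higher and 16 lower estimates, with a median of -0.25 and 0 called. The median was -0.13 without cKO library 1, -0.11 with the stricter gate and -0.05 with equal numbers of cells. Beside Dll3, the lower estimates included Mfng, a glycosyltransferase that modifies Notch, at 27.1, 37.2 and 25 CPM in controls and 21.4, 18.5 and 16.5 CPM in cKO libraries. The most abundant members were the receptor Notch1, at 142 to 161 CPM in controls and 104 to 155 CPM in cKO libraries, and the nuclear effector Rbpj, at 74.5 to 108 and 82.0 to 99.3 CPM. The mean log2 CPM over the list was 4.03, 4.10 and 4.03 in controls, 3.87, 3.82 and 3.69 in cKO libraries and 3.96 in the DKO library. Among markers of transit amplifying precursors, Egfr was at 66.8, 46.5 and 57.0 CPM in controls and 47.6, 40.4 and 73.4 CPM in cKO libraries. Mcm2, a replication factor, was at 122, 125 and 82.1 CPM in controls and 106, 86.7 and 81.7 CPM in cKO libraries. Dll1, a Notch ligand, was at 19.0, 19.4 and 15.1 CPM in controls and 17.6, 11.6 and 7.24 CPM in cKO libraries. All 3 overlapped between groups, and their part in the Notch values was not tested. In postmitotic neuroblasts the same list had a median of 0.00, and the test of the difference between the populations called no gene.

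Nuclear genes of the respiratory chain and ATP synthase had higher estimates in 70 of 78 cases, with a median log2 fold change of 0.26 and 0 called. The mean log2 CPM over the list was 7.50, 8.11 and 8.12 in controls, 7.87, 8.19 and 8.30 in cKO libraries, and 8.31 in the DKO library. Control library 1 was the lowest and cKO library 1 the next, so the groups overlapped. The median was 0.05 without control library 1, 0.40 without control library 3, 0.42 without cKO library 1 and 0.13 without cKO library 3. Cox7c, a subunit of cytochrome c oxidase, was at 517, 1142 and 1170 CPM in controls and 689.6, 1445 and 1549 CPM in cKO libraries. Ndufs8, a subunit of complex I, was at 55.5, 84.3 and 70.2 CPM in controls and 85.7, 92.4 and 94.1 CPM in cKO libraries, without overlap.

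Ribosomal protein genes followed the same libraries: 75 of 77 had higher estimates, with a median of 0.26 and list means of 9.70, 10.29 and 10.50 in controls against 10.14, 10.44 and 10.67 in cKO libraries. Their median was 0.08 without control library 1, 0.46 without control library 3, 0.40 without cKO library 1 and 0.13 without cKO library 3. Rps29 was at 1898, 2812 and 3611 CPM in controls and 3074, 4152 and 4283 CPM in cKO libraries. Several ribosomal genes have near-identical pseudogenes, so their counts are uncertain. Of the 13 mitochondrially encoded genes, 12 had higher estimates in cKO libraries (median 0.28, or 0.13 without cKO library 1 and 0.17 without control library 1), while in the DKO library the median against control was -0.51. mt-Atp6, an ATP synthase subunit, was at 5048 to 6611 CPM in controls, 5696 to 8462 CPM in cKO libraries and 3582 CPM in the DKO library.

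Immediate early genes, which respond to stimulation within minutes and also to tissue dissociation, had lower estimates in 21 of 23 cases (median -0.31, 0 called). The median was -0.49 without cKO library 1, -0.19 without cKO library 2, -0.58 with equal numbers of cells and -0.16 after thinning to 4000 UMIs. The list means were 4.92, 5.07 and 4.75 in controls and 4.79, 4.14 and 4.30 in cKO libraries, where cKO library 1 lay among the controls. Atf3 was at 13.0, 10.7 and 9.03 CPM in controls and 4.17, 2.31 and 4.14 CPM in cKO libraries (log2 fold change -1.49 ± 0.37, unadjusted p = 0.00073, edgeR). Egr1, the most abundant, was at 716, 1079 and 1035 CPM in controls and 746, 453 and 789 CPM in cKO libraries. In postmitotic neuroblasts the list had a median of -0.44.

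In the remaining lists no gene was called with all libraries and no block. Glycolysis genes had 14 of 17 lower estimates with a median of -0.18, which was -0.09 without cKO library 2, -0.10 without control library 2, -0.11 without control library 3 and -0.03 with the stricter gate. Gapdh, the most abundant, overlapped between groups, at 1008 to 1389 CPM in controls and 1019.6 to 1167 CPM in cKO libraries. Cholesterol synthesis (24 tested) had a median of -0.01, heat shock genes (14 tested) -0.02, and cell death genes and p53 targets (21 tested) -0.01, and each of these 3 medians changed sign over the alternatives. Bax, a pro-apoptotic protein, was at 144, 174 and 187 CPM in controls and 210.3, 206 and 202 CPM in cKO libraries.

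**Figure D4:**
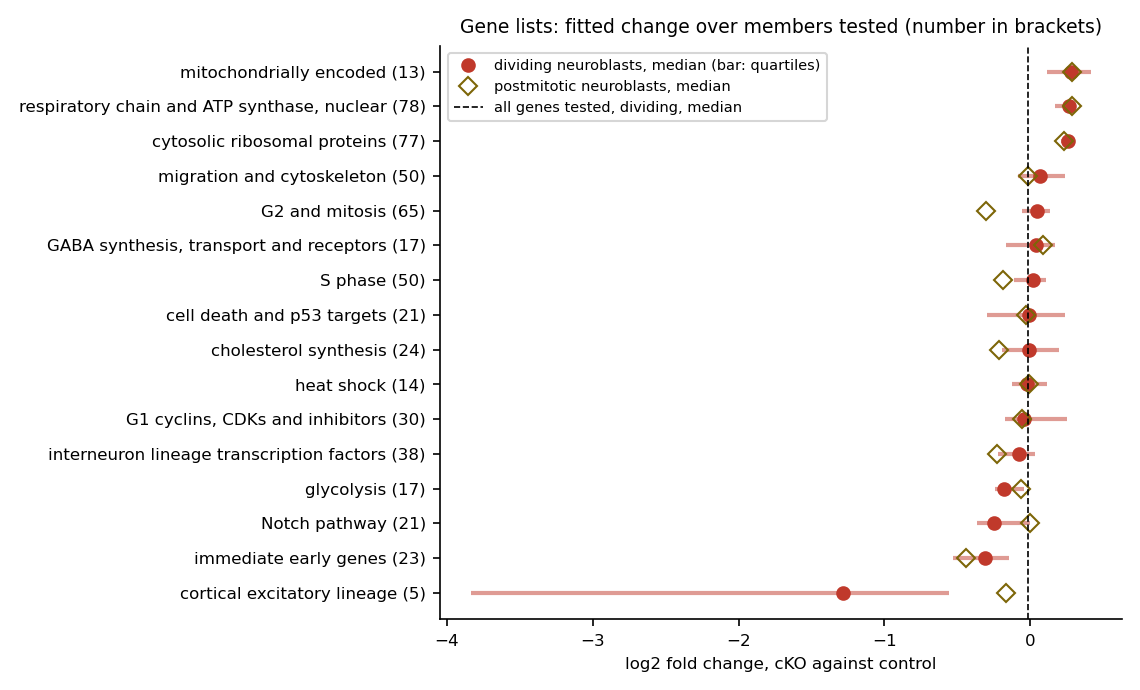
Fitted log2 fold change of cKO against control over the members of 16 gene lists; filled circles are medians in dividing neuroblasts with bars from the first to the third quartile, open diamonds are medians in postmitotic neuroblasts, and the dashed line is the median of all genes tested in dividing neuroblasts. Medians lie highest, at 0.26 to 0.28, for mitochondrially encoded, respiratory chain and ribosomal genes, and lowest for the cortical excitatory list, which rests on 5 genes.

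Whether the genotype effect differed between dividing and postmitotic neuroblasts was tested with both populations of each control and cKO library in 1 model. Of 12258 genes, 0 were called (0.0%), by edgeR as by DESeq2; by edgeR 603 had an unadjusted p under 0.05 (4.92%). Anks1b was at 166, 187 and 168 CPM in control and 179.8, 176 and 159 CPM in cKO postmitotic neuroblasts, and its difference between the effects was 0.64 on the log2 scale (unadjusted p = 0.00043). For Dll3 the difference was -0.87 (unadjusted p = 0.026, edgeR). Anks1b and Dll3 were picked by their p in dividing neuroblasts, and this model reuses those counts, so the selection favours small p-values. Without cKO library 1 the model called 47 genes with a higher and 27 with a lower effect in dividing neuroblasts. No effect was therefore shown to be particular to dividing neuroblasts with all libraries.

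The single DKO library was compared with the other groups on the assumption that it varies as they do. Against control, 3 genes were called higher and 0 lower of 12157 (0.0247%), 453 had an unadjusted p under 0.05 (3.73%), and DESeq2 called 2 higher and 0 lower. S100a10 (chromosome 3, 93555080 to 93564643, plus strand), a calcium-binding-family partner of annexin A2, was at 40.6, 67.3 and 66.2 CPM in controls, 55.6, 47.4 and 52.7 CPM in cKO libraries and 256 CPM in the DKO library, a log2 fold change of 2.11 ± 0.23 against control (adjusted p = 0.00034, edgeR). It was also the 1 gene called against cKO (0.00823%). Its level in the DKO library was 439.9 CPM in postmitotic neuroblasts, where the other libraries had 63.6 to 136 CPM. Vcam1 lies on the same chromosome (116109949 to 116129688), and whether its floxed allele bears on the S100a10 level was not tested. Aim2 and Gm17167, also called against control, lie on chromosomes 1 and 4.

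Aim2, a sensor of cytosolic DNA, was at 23.5 CPM in the DKO library against 3.64 to 5.53 CPM in controls. Gm17167, a predicted gene, had 51 UMIs in the DKO library against 2 in all controls. The low-count filter lets a gene in on the level of 1 library. Gm17167 could not pass it through the controls, so its call only describes the DKO library. Fezf2 and Eomes, at 0.93 and 1.40 CPM in the DKO library, lay above every cKO library, Fezf2 below every control and Eomes within the range of the controls. Dll3, at 15.1 CPM, was near the cKO libraries, and Txnip, at 112 CPM, within the range of the controls. None of these 4 was called in the DKO library, and 1 library allows no estimate of its own spread.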

How the data were processed

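The authors deposited 1 matrix of raw UMI counts per library, made with Cell Ranger from 10x Genomics 3' v3.1 libraries. The submitters' notes name Cell Ranger 6.1.1 and the build mm10, while the file headers name 6.0.1 for 4 libraries. Cells with 500 to 7000 detected genes and at most 10% mitochondrial UMIs were kept. Doublets were marked with Scrublet (scanpy 1.11.5, expected rate 0.08; in control library 1 its threshold failed and the median of the other libraries was used) and kept.

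The members and gene lists were chosen with earlier results of these data known. Counts were summed per library over members and tested with edgeR 4.0.16 (filterByExpr, TMM, robust quasi-likelihood fit, 3 groups, Benjamini-Hochberg threshold 0.05), as the study's own tests across cells do not use the spread between libraries. CPM use the TMM library size. The SE of an edgeR log2 fold change was derived as its absolute value divided by the square root of the quasi-likelihood F. The interaction model had library as a block. Shares were compared with exact permutation tests, and p-values measure the spread between pooled libraries. Differences between populations are medians over 7 libraries of log2(CPM + 1). Scripts were tested on simulated data. Replicate libraries differed by more than counting noise (chi-square per degree of freedom 4.21 to 23.9).

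Genes named were the targeted genes and Prm1, called genes whose mean log2 CPM reached 4 (or, with fewer than 6 called, the 6 smallest p), up to 4 genes per list by level and by p, and genes called for the DKO. Egfr, Mcm2, Dll1, Cdk1, Sp8 and Stmn2 were shown outside this rule. Alternatives were DESeq2 1.42.0, no low-count filter, blocks, other gates, filters and thinning, and each library left out. Gene positions come from GENCODE M21. Some items are not reported here.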

Additional observations from a re-analysis of the deposited data

How the results depend on the processing

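No gene was called between cKO and control with all libraries, and 7 of the alternatives gave calls. The number higher was 3 with DESeq2, 14 without the low-count filter, 4 with the Cell Ranger version as a block (Prm1, Tfap2a, Hist1h1a and Hist1h1b) and 2 with equal numbers of cells (Prm1 and Rbfox3). The number lower was 3 without the filter and 1 with equal numbers of cells (Lima1). With 1 library left out, 0 to 6 were higher and 0 to 3 lower. Against control, the DKO library had 18 genes higher and 9 lower without the filter, 1 higher with the stricter gate and 1 with equal numbers of cells, and 1 to 4 higher and 0 to 1 lower with 1 library left out. Against cKO it had 6 higher and 5 lower without the filter, 1 lower with DESeq2, 1 lower without doublets, 1 lower with the stricter gate, and 1 to 2 higher and 0 to 1 lower with 1 library left out. The interaction gave 0 to 47 higher and 0 to 27 lower with 1 library left out. Control and cKO libraries with the same number deviated together with correlations of 0.32, 0.02 and 0.28, against -0.33 to 0.07 for different numbers. The main model did not take the numbers as pairs, and whether libraries of the same number shared a batch was not tested. The single DKO library carries number 1, so a block on the number sets it beside control library 1 and cKO library 1. Their headers name Cell Ranger 6.0.1 and their medians were 12924 and 11118.5 UMIs per member, against 6.1.1 and 19767 in the DKO library. The DKO counts under this block, given next, cannot separate genotype from these differences and are not read as DKO results. With the number as a replicate block, 46 genes were higher and 11 lower in cKO, 421 and 49 in the DKO against control, and 186 and 17 against cKO; the cause was not tested. Of the 46, 19 were histone genes, and the block also called 4 of the 6 genes named by smallest p (Anks1b and Tmem160 higher, Dll3 and Txnip lower), Rps29 higher, and Cdk6, Atf3 and Aldoc lower. The share of kept cells was lower in cKO under every alternative, by 0.16 to 2.22 percentage points, with p from 0.20 to 0.80 (exact permutation tests), and by 0.058 points within Cell Ranger 6.0.1 and 2.85 within 6.1.1. The 0.16 was found after thinning to 2000 UMIs, which left out shallow cells. Removing the condition on Pdgfra and Mog, an alternative chosen after seeing the data, gave the difference of 2.22 points. The cKO group is limited by small numbers of members in libraries 2 and 3, at 40 and 55.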
